A study of Mus musculus with 6 samples.

Results

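The enzymes, transporters and phosphate hormones that set the mineral content of bone matrix were examined as 10 genes, Alpl, Phospho1, Smpd3, Enpp1, Slc20a1, Slc20a2, Slc13a5, Phex, Fgf23 and Fam20c. They were chosen by gene name from a table of 32000 genes, and all 10 were found there and passed the filter on low counts. The table came from bulk mRNA sequencing of tissue labelled cortical bone, while the study's text also speaks of bone particles and of marrow cells of femur and tibia. One group was fed a high-fat diet for 12 months (HFD, libraries HFD 2, HFD 3 and HFD 4). The other was kept for the same time on the diet that the labels call a chewing diet and the study's methods standard chow (CD, libraries CD 1, CD 2 and CD 4). All animals were male C57BL/6J mice, 18 months old, with no other allele or agent named. The comparison asks which bone transcripts differ in aged mice after prolonged high-fat feeding. Whether the libraries stem from different animals is not given in the labels, so the spread behind each p-value is that of these libraries and may be technical.

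Bone mineral is calcium phosphate, and it forms in the matrix that osteoblasts secrete, starting at small vesicles that bud from these cells. Inorganic pyrophosphate stops crystal growth. ENPP1 makes it from nucleotides outside the cell, and tissue-nonspecific alkaline phosphatase, the product of Alpl, cleaves it to phosphate. Inside the vesicles PHOSPHO1 frees phosphate from phosphocholine, which sphingomyelinases such as SMPD3 release from membrane lipid. The transporters encoded by Slc20a1 and Slc20a2 bring phosphate into cells, and that of Slc13a5 brings in citrate. Osteocytes, the cells buried in the matrix, secrete FGF23, a hormone that makes the kidney excrete phosphate, and loss of PHEX or FAM20C raises FGF23 in mice.

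The windows before the transcription starts of these genes are given first, since the genes were compared by how far they moved together. RefSeq windows on GRCm38.p6 matched 8 of the 10 genes with 11 starts, and the 250 bases before each start were read. Alpl is shown with both starts, Phospho1 as the nearest to it in pattern of the 10, Enpp1 as the source of the pyrophosphate that Alpl removes, Slc20a1 as the one gene with a higher fitted mean in HFD, and Phex as a gene whose window held no motif searched. The windows lie at chr4:137796385-137796634 and chr4:137766476-137766725 for Alpl (minus strand), chr11:95824250-95824499 for Phospho1 (plus strand), chr10:24712160-24712409 for Enpp1 (minus strand), chr2:129198523-129198772 for Slc20a1 (plus strand) and chrX:157415287-157415536 for Phex (minus strand). Each is written 5′ to 3′ on the gene's strand, with motif matches in capitals.
Alpl, upstream start: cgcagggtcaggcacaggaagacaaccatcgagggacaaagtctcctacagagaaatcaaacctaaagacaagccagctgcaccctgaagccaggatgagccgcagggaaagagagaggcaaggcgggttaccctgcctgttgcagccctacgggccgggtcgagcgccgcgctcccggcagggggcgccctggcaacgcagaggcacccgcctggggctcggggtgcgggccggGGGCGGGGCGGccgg
Alpl, downstream start: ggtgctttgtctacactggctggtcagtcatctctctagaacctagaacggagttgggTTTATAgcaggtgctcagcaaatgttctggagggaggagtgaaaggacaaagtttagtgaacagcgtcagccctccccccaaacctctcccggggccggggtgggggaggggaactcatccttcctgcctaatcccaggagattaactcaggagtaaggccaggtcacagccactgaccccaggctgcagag
Phospho1: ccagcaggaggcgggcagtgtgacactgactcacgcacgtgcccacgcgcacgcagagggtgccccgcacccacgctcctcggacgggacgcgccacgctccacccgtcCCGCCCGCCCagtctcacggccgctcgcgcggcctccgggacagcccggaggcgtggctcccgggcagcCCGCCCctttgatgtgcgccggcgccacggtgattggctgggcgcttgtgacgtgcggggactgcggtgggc
Enpp1: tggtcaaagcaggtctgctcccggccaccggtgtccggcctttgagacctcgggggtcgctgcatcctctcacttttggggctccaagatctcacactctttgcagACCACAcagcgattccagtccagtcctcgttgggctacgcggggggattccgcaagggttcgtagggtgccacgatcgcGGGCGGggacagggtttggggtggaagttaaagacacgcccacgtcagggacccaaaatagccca
Slc20a1: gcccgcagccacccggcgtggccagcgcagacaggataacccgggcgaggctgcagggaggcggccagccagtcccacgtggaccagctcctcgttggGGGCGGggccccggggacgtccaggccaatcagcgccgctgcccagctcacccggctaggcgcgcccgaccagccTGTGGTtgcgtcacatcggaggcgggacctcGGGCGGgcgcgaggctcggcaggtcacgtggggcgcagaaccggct
Phex: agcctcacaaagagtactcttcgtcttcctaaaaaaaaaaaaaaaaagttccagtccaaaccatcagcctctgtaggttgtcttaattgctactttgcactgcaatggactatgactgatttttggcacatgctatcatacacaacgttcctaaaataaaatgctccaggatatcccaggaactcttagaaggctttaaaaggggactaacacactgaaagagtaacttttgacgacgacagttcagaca

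4 motifs were searched on both strands. They were the core TGTGGT bound by RUNX factors such as RUNX2, the osteoblast regulator, the GC box GGGCGG, the TATA box TATAAA and the homeodomain core TAATTA. Of 32851 windows of the same length, 14.0% held the RUNX core, 32.7% the GC box, 12.4% the TATA box and 4.84% the homeodomain core. The upstream start of Alpl had 2 overlapping GC boxes and a GC content of 68.4%. The downstream start had 1 TATA box, read on the opposite strand as TTTATA, and a GC content of 56.0%. Phospho1 had 3 GC boxes, all read as CCGCCC, of which 2 overlap. Enpp1 had 1 RUNX core, read as ACCACA, and 1 GC box. The Slc20a1 window shown had 1 RUNX core and 2 GC boxes, and that of its second start, at chr2:129206846-129207095, had 1 GC box and no RUNX core. Neither Phex, at a GC content of 39.2%, nor Fgf23, at 48.4%, had a match, and the homeodomain core was in none of the 11 windows. A match describes these letters only, and the table counts reads per gene, so that the starts of Alpl cannot be told apart in the values that follow.

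Total counts ran from 54.5 to 60.5 M (mega-counts) in HFD and from 55.4 to 61.6 M in CD. Levels are given as CPM, counts scaled to the size of the library and between libraries by TMM, with group means ± SD over 3 libraries each. Fold changes are HFD minus CD on the log2 scale ± SE from edgeR's quasi-likelihood test, and adjusted p-values are Benjamini-Hochberg values over 19831 genes. The libraries also differed across the diets. Mitochondrially encoded genes took 15.5% to 38.6% of the counts in HFD and 15.3% to 37.9% in CD, and the TMM factors ran from 0.828 to 1.28 in HFD and from 0.640 to 1.24 in CD. A list of 20 intestinal epithelium genes summed to 189, 173 and 260 CPM in HFD 2, HFD 3 and HFD 4, against 25.3, 15.2 and 200 CPM in CD 1, CD 2 and CD 4. All 15 genes of an osteoblast and matrix list and all 10 of an osteocyte list were counted well enough to be tested, so the markers of the labelled tissue were present. The osteoblast and matrix list took 0.439%, 0.155% and 0.651% of the counts in HFD 2, HFD 3 and HFD 4. Its shares in CD 1, CD 2 and CD 4 were 0.432%, 2.52% and 7.97%. A list of 11 skeletal muscle genes took 4.36%, 0.881% and 2.97% in HFD, against 6.19%, 2.68% and 1.61% in CD.

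Log2 fold changes were nearest to 0 for Fgf23 (-0.17), Slc20a1 (0.20) and Slc20a2 (-0.28), and below 0 for the other genes. In CPM the diets overlapped in all of the 10 genes except Alpl, Phospho1 and Enpp1. Of the 10 genes, 9 had a lower fitted mean in HFD, against 52.5% of all genes tested, and 5 of them (Alpl, Slc13a5, Smpd3, Phospho1 and Enpp1) had an unadjusted p under 0.05 in that direction, against 7.2% of all genes, while 0 were higher at that p, against 2.46% of all genes. In 3 genes (Alpl, Phospho1 and Enpp1) every HFD library lay below every CD library, a pattern found in 10.2% of all genes, and in 0 every HFD library lay above, a pattern of 4.97% of all genes. No gene of the 19831 passed an adjusted p of 0.05 in edgeR (0%), where 1428 genes were lower and 488 higher at an unadjusted p under 0.05. DESeq2 called 342 genes, 1.11% of its genes as lower and 0.535% as higher, and Alpl and Smpd3 were among the lower ones. The median log2 fold change of the 10 genes was -1.17, beside -0.03 over all genes tested. The 10 genes were chosen with earlier results of these data known, so these counts describe them and do not test them as a set. The count of 5 was 2 without CD 4, 3 without HFD 2 and 3 without HFD 3. Over all genes, 473 of 20628, 581 of 20556 and 745 of 20450 were lower at that p in these fits. The median of the 10 genes was -0.68 without CD 4 and -1.86 without HFD 4. On the FPKM scale (limma, log2(FPKM + 1)), where 4213 of 14940 genes were lower and the median of all genes was 0.19, 7 of the 9 genes that could be fitted were lower, with a median of -0.59.

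**Figure D1:**
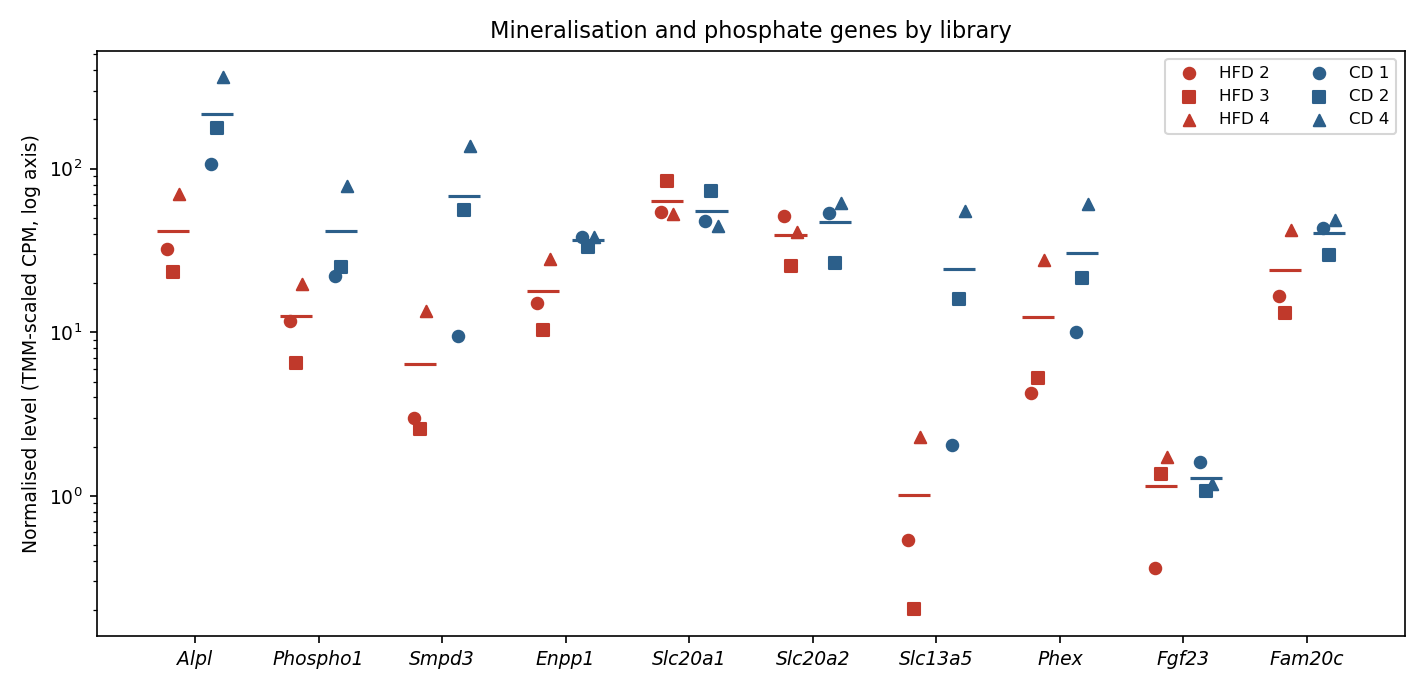
TMM-scaled CPM (log axis) of the 10 genes in each library, with HFD in red left of CD in blue. Points are libraries and lines are group means. Alpl, Phospho1 and Enpp1 show no overlap between the diets, CD 4 is the highest library for 7 genes and HFD 3 the lowest for 7.

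Alpl (ENSMUSG00000028766, chr4:137741733-137796384, minus strand) encodes the tissue-nonspecific alkaline phosphatase of osteoblasts. It had 32.5, 23.3 and 69.8 CPM in HFD 2, HFD 3 and HFD 4, against 107, 178 and 362 CPM in CD 1, CD 2 and CD 4. Every HFD library lay below every CD library, and on the log2 scale each diet spanned about the same range. The means were 41.8 ± 24.6 CPM in HFD and 215 ± 131 CPM in CD, a log2 fold change of -2.36 ± 0.58 (edgeR, adjusted p = 0.466). DESeq2 called the difference (adjusted p = 0.0095). In the deposited FPKM, which carry no scaling for composition, CD 1 lay nearer to HFD 4 but the diets were still apart, at 8.86, 6.43 and 12.7 FPKM in the HFD libraries and 14.9, 47.9 and 73.7 FPKM in the CD libraries. Without CD 4 the log2 fold change of Alpl was -1.70 (edgeR, adjusted p = 0.773).

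Of the intestinal and germ-cell relatives of Alpl, only Alpi, the intestinal alkaline phosphatase, was read here. It had 0, 8 and 24 counts in HFD 2, HFD 3 and HFD 4, against 0, 0 and 8 counts in CD 1, CD 2 and CD 4, below the filter on low counts. Alpl had 1719 counts or more in each library.

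Phospho1 (ENSMUSG00000050860, chr11:95824499-95832140, plus strand), the phosphocholine and phosphoethanolamine phosphatase of matrix vesicles, had 11.8, 6.46 and 19.7 CPM in HFD 2, HFD 3 and HFD 4, against 22.1, 25.1 and 78.1 CPM in CD 1, CD 2 and CD 4. The groups did not overlap, but HFD 4 and CD 1 lay close together and CD 4 stood far above the rest. The means were 12.7 ± 6.68 CPM in HFD and 41.8 ± 31.5 CPM in CD, with a log2 fold change of -1.72 ± 0.60 (edgeR, adjusted p = 0.469). DESeq2 did not call it (adjusted p = 0.132). On the FPKM scale HFD 4 had 7.14 FPKM and CD 1 had 6.10 FPKM, so the groups overlapped there, and without CD 4 the log2 fold change was -0.83 (edgeR, adjusted p = 0.91). The span of Phospho1 overlaps Zfp652 on the same strand and Abi3 on the other. Since the use of strand in counting is not settled, reads of these genes may not be fully separated.

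Smpd3 (ENSMUSG00000031906, chr8:106252548-106337988, minus strand) encodes neutral sphingomyelinase 2, whose loss in mice leaves bone poorly mineralised. It had 3.01, 2.57 and 13.6 CPM in HFD 2, HFD 3 and HFD 4, against 9.55, 55.7 and 138 CPM in CD 1, CD 2 and CD 4. The groups overlapped, since CD 1 lay below HFD 4, while CD 2 and CD 4 were above all HFD libraries. The means were 6.39 ± 6.23 CPM in HFD and 67.6 ± 64.8 CPM in CD, with a log2 fold change of -3.41 ± 1.05 (edgeR, adjusted p = 0.466). DESeq2 called this difference (adjusted p = 0.0127). Without CD 4 the log2 fold change of Smpd3 was -2.29, and without HFD 4 it was -4.60. Prmt7 overlaps Smpd3 on the opposite strand.

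Enpp1 (ENSMUSG00000037370, chr10:24637914-24712159, minus strand), the source of extracellular pyrophosphate, had 15.2, 10.3 and 28.0 CPM in HFD 2, HFD 3 and HFD 4, against 38.4, 33.2 and 38.1 CPM in CD 1, CD 2 and CD 4. The CD libraries were nearly equal, and all HFD libraries lay below them. The means were 17.8 ± 9.15 CPM in HFD and 36.6 ± 2.91 CPM in CD, a log2 fold change of -1.04 ± 0.37 (edgeR, adjusted p = 0.472). DESeq2 did not call it (adjusted p = 0.273). With Alpl, it was 1 of 2 genes whose groups were also apart on the FPKM scale, a pattern of 4.17% of all genes in that direction. The maker of pyrophosphate and the enzyme that removes it thus both lay lower in HFD.

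Slc13a5 (ENSMUSG00000020805, chr11:72241989-72267222, minus strand) encodes the sodium-dependent citrate transporter, known for carrying citrate into liver cells and osteoblasts. It was almost absent from part of the libraries, with 37, 15 and 114 counts in HFD 2, HFD 3 and HFD 4, against 81, 1090 and 3206 counts in CD 1, CD 2 and CD 4. As CPM these were 0.538, 0.203 and 2.28 in HFD and 2.06, 15.9 and 55.2 in CD. CD 1 lay just below HFD 4, so that the difference rested on CD 2 and CD 4. The means were 1.01 ± 1.11 CPM in HFD and 24.4 ± 27.6 CPM in CD. The log2 fold change of -4.62 ± 1.33 had an adjusted p of 0.466 in edgeR, against an adjusted p of 0.0523 in DESeq2. Without CD 4 it was -3.10 and without HFD 4 it was -6.04. It was the farthest from 0 of the 10 genes, and with Alpl and Smpd3 it made up the 3 of them under -2, as were 1.87% of all genes tested.

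Slc20a1 (ENSMUSG00000027397, chr2:129198764-129211616, plus strand), the sodium-phosphate cotransporter PiT-1, had 54.4, 83.7 and 52.5 CPM in HFD 2, HFD 3 and HFD 4, against 47.8, 73.5 and 44.5 CPM in CD 1, CD 2 and CD 4. The groups overlapped over nearly their whole range. The log2 fold change was 0.20 ± 0.30 (edgeR, adjusted p = 0.84). Its direction turned to -0.05 without HFD 3.

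Slc20a2 (ENSMUSG00000037656, chr8:22476788-22569612, plus strand), the paralogous carrier PiT-2, had 51.0, 25.3 and 41.1 CPM in HFD 2, HFD 3 and HFD 4, against 53.8, 26.6 and 62.0 CPM in CD 1, CD 2 and CD 4. Here too each diet held a low and a high library. The log2 fold change was -0.28 ± 0.38 (edgeR, adjusted p = 0.829), and it was 0.03 on the FPKM scale and 0.04 without CD 4. Both carriers spanned little over the libraries, 1.88-fold from lowest to highest for Slc20a1 and 2.45-fold for Slc20a2, where Slc13a5 spanned 272-fold. Slc20a2 overlaps Smim19 on the opposite strand and Gm17491 on the same strand.

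Phex (ENSMUSG00000057457, chrX:157162075-157415286, minus strand) encodes a membrane endopeptidase of osteoblasts and osteocytes. It had 4.23, 5.28 and 27.6 CPM in HFD 2, HFD 3 and HFD 4, against 10.1, 21.5 and 60.4 CPM in CD 1, CD 2 and CD 4. HFD 4 stood above CD 1 and CD 2. The log2 fold change was -1.31 ± 0.88 (edgeR, adjusted p = 0.665), -0.28 without CD 4 and -2.69 without HFD 4.

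Fgf23 (ENSMUSG00000000182, chr6:127072902-127081408, plus strand) was the least counted, with 25, 100 and 86 counts in HFD 2, HFD 3 and HFD 4, against 63, 73 and 69 counts in CD 1, CD 2 and CD 4. This made 0.363, 1.35 and 1.72 CPM in HFD and 1.60, 1.06 and 1.19 CPM in CD. The CD libraries lay inside the range of the HFD libraries, with HFD 2 lowest and HFD 4 highest. The log2 fold change of -0.17 ± 0.61 (edgeR, adjusted p = 0.941) turned to 0.26 without HFD 2 and 0.02 without CD 1. No difference was detectable at this depth and spread.

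Fam20c (ENSMUSG00000025854, chr5:138754514-138810077, plus strand), the secretory-pathway kinase that phosphorylates matrix proteins such as osteopontin, had 16.7, 13.1 and 42.1 CPM in HFD 2, HFD 3 and HFD 4, against 43.2, 29.6 and 48.8 CPM in CD 1, CD 2 and CD 4. HFD 2 and HFD 3 lay below all CD libraries and HFD 4 within them. The log2 fold change was -0.76 ± 0.46 (edgeR, adjusted p = 0.622), -1.44 without HFD 4, -0.46 without HFD 3 and -0.53 without CD 4.

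The order of the genes within each diet differed when levels were set per transcript length, as FPKM. In HFD, Slc20a1 had the highest mean with 11.4 FPKM, followed by Alpl with 9.34, Slc20a2 with 6.14, Phospho1 with 5.69 and Fam20c with 3.23 FPKM. Phex with 1.63, Enpp1 with 1.58, Smpd3 with 1.03, Fgf23 with 0.577 and Slc13a5 with 0.167 FPKM closed that order. In CD, Alpl led with 45.5 FPKM, before Phospho1 with 17.1, Smpd3 with 11.4, Slc20a1 with 8.56 and Slc20a2 with 5.90 FPKM. Fam20c followed with 4.88, Slc13a5 with 4.31, Phex with 4.17, Enpp1 with 2.89 and Fgf23 with 0.555 FPKM. Smpd3 thus stood at rank 8 in HFD and rank 3 in CD, and Slc13a5 at rank 10 in HFD and rank 7 in CD. Most neighbours in these orders were no farther apart than the larger of their SDs, such as Slc20a1 (SD 4.94 FPKM) and Alpl (SD 3.17 FPKM) in HFD. The exceptions were Alpl and Slc20a2, Phospho1 and Fam20c, Fam20c and Phex, and Fgf23 and Slc13a5 in HFD, and Enpp1 and Fgf23 in CD.

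Ratios of FPKM within a library do not depend on the scaling between libraries. Alpl over Enpp1, phosphatase over pyrophosphate source, was 5.45, 5.75 and 6.35 in HFD 2, HFD 3 and HFD 4, against 7.11, 13.6 and 24.1 in CD 1, CD 2 and CD 4. The HFD libraries had nearly the same ratio and all lay below CD, with a log2 difference of -1.19. Alpl over Phospho1 was 1.39, 1.82 and 1.78 in HFD and 2.44, 3.56 and 2.33 in CD, a log2 difference of -0.72. Alpl over Slc20a1 was 0.826, 0.385 and 1.84 in HFD and 3.10, 3.35 and 11.3 in CD, a log2 difference of -2.55. In these ratios the diets did not overlap, and each had an exact two-sided permutation p of 0.1, the smallest that 3 libraries against 3 allow. The Benjamini-Hochberg value over the 7 ratios taken was 0.233. The diets overlapped in the other 4, which were Alpl over Ank (log2 difference -1.76, exact permutation p = 0.2), Smpd3 over Phospho1 (-1.53, p = 0.2), Phex over Fgf23 (-1.03, p = 0.4) and Slc20a1 over Slc20a2 (0.45, p = 0.5).

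Several of the 10 genes were lowest and highest in the same libraries as genes of osteoblasts. In bulk tissue, fewer cells of a type and less RNA per cell cannot be told apart. The mean log2 CPM of the 15 osteoblast and matrix genes, such as Col1a1 and Sp7, was 5.14, 4.13 and 6.21 in HFD 2, HFD 3 and HFD 4, against 6.11, 7.50 and 8.98 in CD 1, CD 2 and CD 4. The list was chosen with earlier results of these data known, so its counts describe it and are no independent reading. All 15 had a lower fitted mean in HFD and an unadjusted p under 0.05, with a median log2 fold change of -2.65. Without CD 4 the median was -1.40 and 4 of the 15 had that p, and 6 had it without HFD 2 and 8 without HFD 3. HFD 3 was lowest and CD 4 highest in this list, as they were for Alpl, Phospho1, Smpd3, Slc20a2, Slc13a5 and Fam20c. Enpp1 was highest in CD 1 and Phex lowest in HFD 2, and Fam20c was higher in CD 1 than in CD 2, unlike the list.

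**Figure D2:**
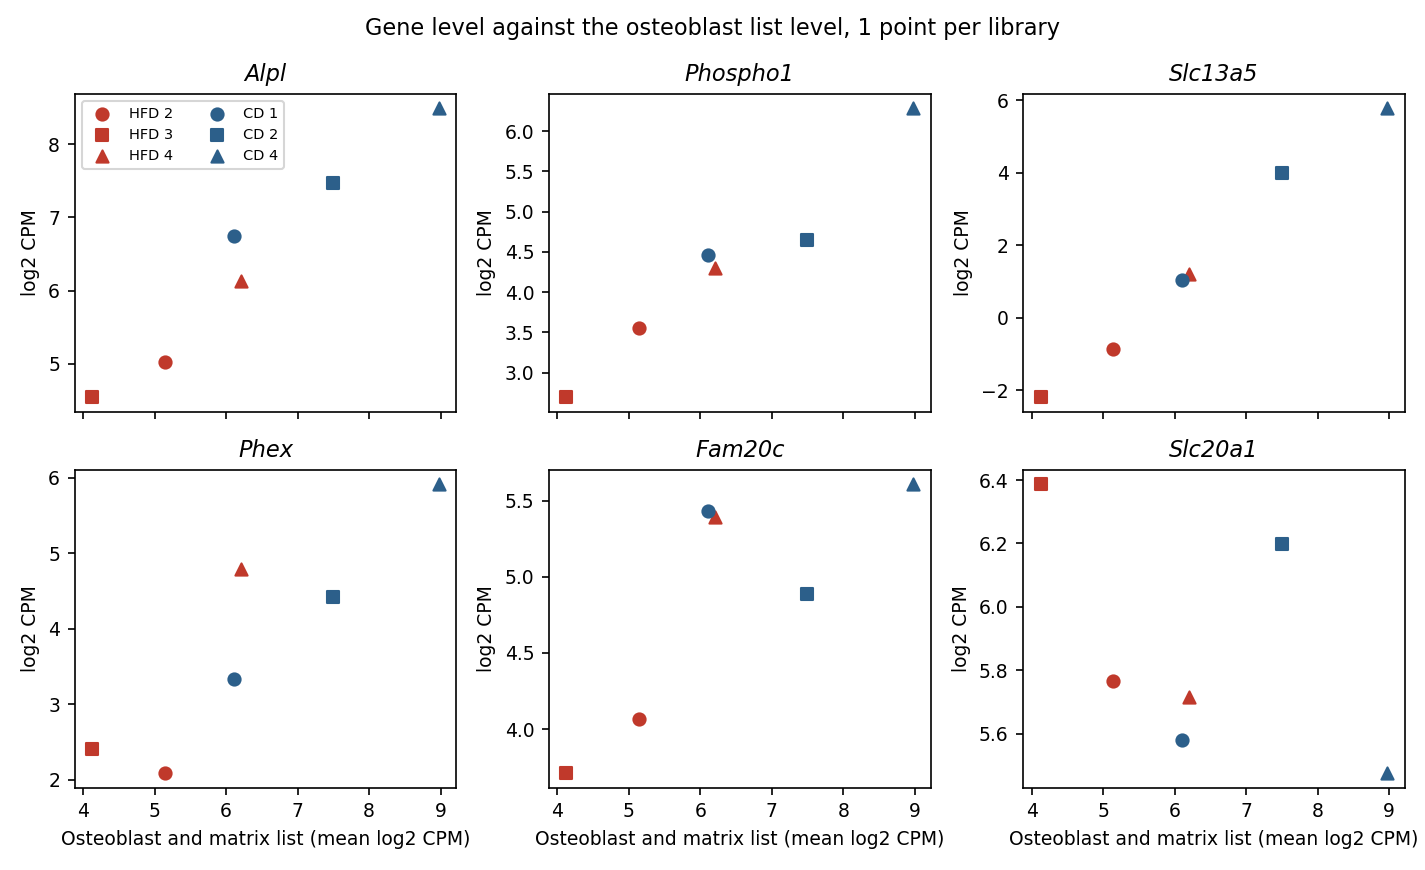
log2 CPM of 6 genes (vertical axes, each with its own range) against the mean log2 CPM of the osteoblast and matrix list (horizontal axes), with 1 point per library and HFD in red, CD in blue. Alpl, Phospho1 and Slc13a5 are lowest in HFD 3 and highest in CD 4, as the list is, while Slc20a1 is highest in HFD 3 and lowest in CD 4.

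Set against this list within each library, Alpl had nearly equal means under both diets. The log2 level of Alpl over the list was -0.12, 0.42 and -0.08 in HFD 2, HFD 3 and HFD 4, against 0.64, -0.02 and -0.48 in CD 1, CD 2 and CD 4. The difference of the means was 0.03 (exact two-sided permutation test, p = 1). For Phospho1 it was 0.75 (exact permutation p = 0.2), for Smpd3 -0.77 (p = 0.3) and for Slc13a5 -1.86 (p = 0.2). Slc20a1 lay higher over the list in every HFD library, at 0.63, 2.26 and -0.49 in HFD against -0.53, -1.30 and -3.50 in CD, a difference of 2.57 (exact permutation p = 0.1, the smallest the design allows). Against the osteocyte list, Alpl (-1.40), Smpd3 (-2.20) and Slc13a5 (-3.28) were lower in every HFD library (exact permutation p = 0.1 each). 20 such comparisons were made, and none can pass a correction in this design.

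With the osteoblast list as a covariate in edgeR, the median log2 fold change of the 10 genes was -0.17, and 0 of them had an unadjusted p under 0.05. Among all genes 1.07% were lower and 1.28% higher at that p in this fit. Alpl had the lowest value, -0.76 ± 0.34 (edgeR, adjusted p = 1), Slc13a5 had -0.38 ± 0.44, and Phospho1 (-0.04 ± 0.38) and Smpd3 (-0.14 ± 0.58) were near 0. Phex turned to 1.06 ± 0.62. The list itself differed between the diets, so the covariate and the diet overlap.

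**Figure D3:**
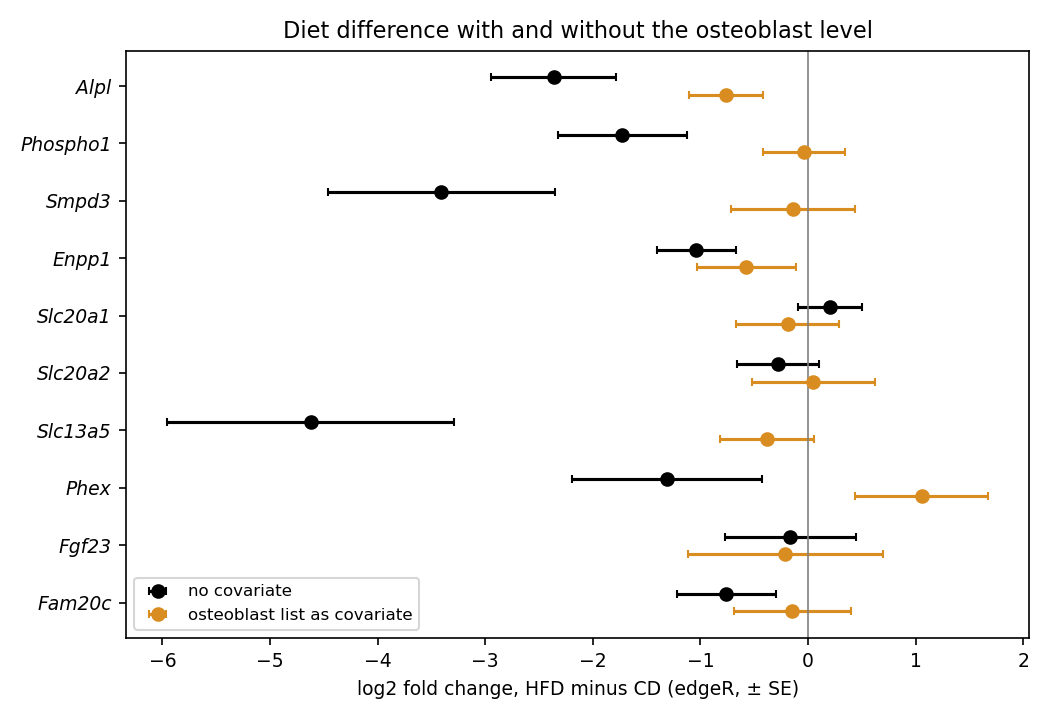
log2 fold change (HFD minus CD, edgeR) of each gene, with bars of ± SE, in the fit without a covariate (black) and with the osteoblast list as covariate (orange). Without it Slc13a5 lies at -4.62 and Smpd3 at -3.41, and with it 8 genes lie between -0.57 and 0.05, beside Alpl at -0.76 and Phex at 1.06.

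Markers of other cells were read in the same way. All 8 osteoclast markers lay lower in every HFD library (median log2 fold change -2.65, and -1.13 without CD 4), with summed levels of 688, 734 and 869 CPM in HFD 2, HFD 3 and HFD 4, against 1366, 1573 and 6676 CPM in CD 1, CD 2 and CD 4. All 7 tested of 11 chondrocyte markers had a lower fitted mean, 4 with an unadjusted p under 0.05. Skeletal muscle markers had a median of -0.89 with 9 of 11 lower, and neutrophil granule markers one of 0.59 with 9 of 10 higher, none of either list with an unadjusted p under 0.05. The muscle median turned to 0.46 without CD 1, with 10 of 11 higher, and the neutrophil median ran from 0.31 without HFD 2 to 1.24 without CD 2. The part of these cells in the differences of the 10 genes was not tested. With the intestinal list as covariate in edgeR, the median log2 fold change of the 10 genes was -1.83. In that fit 5 of them were lower at an unadjusted p under 0.05, as were 1872 of all 19831 genes. The intestinal transcripts were low in CD 1 and CD 2 only, so that covariate and the diet overlap too.

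Patterns over the 6 libraries were compared by the root mean square distance between centred log2 CPM values, over 15392 genes with a mean of at least 1 CPM. This describes likeness and carries no test. Among the 10 genes the closest pairs were Enpp1 and Fam20c (0.23) and Alpl and Phospho1 (0.43). Nearest of all genes to Alpl were Sh3pxd2b (0.11), Adgrd1 (0.12) and Foxc2 (0.13). Nearest to Phospho1 were Col6a1 (0.09), Pcsk5 (0.10) and Lifr (0.12). Smpd3 had the cartilage and bone collagen gene Col11a1 (0.08) as its neighbour, well before Entpd3 (0.35) and Col11a2 (0.37). Nearest to Slc13a5 were Cemip at 0.49, Col11a2 at 0.56 and Lpar3 at 0.67. Such distances grow with a gene's own spread and are not comparable from gene to gene. That spread, the root mean square of the centred values, was 2.71 for Slc13a5, 2.08 for Smpd3 and 1.36 for Alpl. It was 1.35 for Phex, 1.10 for Phospho1 and 0.33 for Slc20a1. Phex was nearest to Irx5 (0.31), Dnm3os (0.36) and Wnt10b (0.37), and Slc20a1 to Ankrd13a, Dnm2 and Suv39h1, all at 0.05.

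The wider pathways were read from lists of genes with related roles, and differed among themselves. Pyrophosphate and matrix vesicle genes had a median log2 fold change of -0.39, with 10 of 11 tested lower and 2 at an unadjusted p under 0.05, and a median of -0.61 without HFD 4. That count was 0 without HFD 2, without HFD 3 and without CD 4, and 1 without CD 2. Nt5e, the ectonucleotidase that makes adenosine and phosphate from AMP, had 6.12, 7.38 and 14.8 CPM in HFD 2, HFD 3 and HFD 4, against 17.6, 20.4 and 19.0 CPM in CD 1, CD 2 and CD 4 (log2 fold change -1.01 ± 0.36, edgeR adjusted p = 0.47). All HFD libraries were below all CD libraries. Enpp6, a choline phosphodiesterase, had -1.45 ± 0.57 (adjusted p = 0.484). The most abundant of the list by FPKM were Mgp, an inhibitor of calcification (-0.10 ± 0.30), and Anxa5, a calcium-binding annexin of matrix vesicles (-0.30 ± 0.26). Ank, the gene linked to pyrophosphate export whose ratio to Alpl is given above, was at 93.5, 53.2 and 106 CPM in HFD and 197, 73.7 and 122 CPM in CD, with overlap.

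The sphingomyelin and phosphocholine genes had a median of -0.25, which turned to 0.03 on the FPKM scale, where the median of all genes was 0.19. In the count fit 6 of 8 were lower, 1 with an unadjusted p under 0.05, and the median was -0.09 without CD 1 and -0.14 without HFD 2. The gene under that p was Sgms2, a sphingomyelin synthase mutated in human bone fragility, with 31.3, 30.7 and 44.3 CPM in HFD 2, HFD 3 and HFD 4, against 43.3, 92.0 and 374 CPM in CD 1, CD 2 and CD 4 (-2.26 ± 0.75, edgeR adjusted p = 0.466). CD 1 lay within the HFD range and CD 4 far above it. Sgms1, its paralogue, had -0.35 ± 0.30, and Chkb, a choline kinase, 0.05 ± 0.27.

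Other phosphate and citrate transporters were spread around 0, with 4 of 8 tested lower, 4 higher and a median of 0.06. In 2 of them, Slc13a2 and Slc17a1, every HFD library lay above every CD library, a pattern of 4.97% of all genes. Slc17a1 had at most 1.40 CPM (1.14 ± 0.67, edgeR adjusted p = 0.613). Xpr1, the phosphate exporter, had 43.2, 41.6 and 63.7 CPM in HFD 2, HFD 3 and HFD 4, against 108, 54.1 and 139 CPM in CD 1, CD 2 and CD 4 (-1.02 ± 0.38, edgeR adjusted p = 0.475). The groups overlapped through CD 2. Slc13a2, a dicarboxylate and citrate carrier of kidney and gut, had 2.59, 2.14 and 3.35 CPM in HFD 2, HFD 3 and HFD 4, against 0.280, 0.175 and 2.12 CPM in CD 1, CD 2 and CD 4, so that it was low in the same CD libraries as the intestinal list (1.64 ± 0.91, adjusted p = 0.594). The mitochondrial carriers of phosphate, Slc25a3 (-0.06 ± 0.36), and of citrate, Slc25a1 (0.17 ± 0.32), were the most abundant by FPKM. Without CD 2 the median of the list turned to -0.21.

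The FGF23 axis and hormone receptor list had a median of -1.22, with 9 of 12 tested lower, 7 at an unadjusted p under 0.05 and 5 with no overlap between the diets. Vdr, the vitamin D receptor, had 12.6, 12.0 and 36.0 CPM in HFD 2, HFD 3 and HFD 4, against 46.9, 67.6 and 129 CPM in CD 1, CD 2 and CD 4 (-2.01 ± 0.56, edgeR adjusted p = 0.466). The groups were apart, and DESeq2 called it (adjusted p = 0.035). Dmp1, the osteocyte matrix protein whose loss raises FGF23 in mice, had -2.54 ± 1.06 (adjusted p = 0.512), and Pth1r, the parathyroid hormone receptor, -1.69 ± 0.57 (adjusted p = 0.466). The diets overlapped in both, with HFD 4 above CD 1. Cyp27b1, which activates vitamin D, was below 2 CPM throughout (-2.33 ± 0.77, adjusted p = 0.466). Without CD 4 the list had 1 gene at an unadjusted p under 0.05 and a median of -0.68, and it had 2 such genes without HFD 2 and 3 without HFD 3.

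Of the FAM20 family and substrates, 4 were tested and 4 were lower, with a median of -1.04. Ibsp, bone sialoprotein, had 88.8, 122 and 241 CPM in HFD 2, HFD 3 and HFD 4, against 319, 425 and 1183 CPM in CD 1, CD 2 and CD 4 (-2.09 ± 0.62, edgeR adjusted p = 0.466, DESeq2 adjusted p = 0.0313). The groups did not overlap. Fam20a, a pseudokinase partner of FAM20C, had -0.96 ± 0.39 (edgeR adjusted p = 0.497), and Spp1, osteopontin, the most abundant of the list by FPKM, -1.13 ± 0.53 (adjusted p = 0.548). Without CD 4 the median of the 4 was -0.65. The osteocyte list, which shares Dmp1 and Mepe with the FGF23 axis, had a median of -0.88. That median was -1.47 without HFD 4 and -0.54 without CD 4. Of its 10 genes 7 were lower and 3 higher. The higher ones were Sost (1.11 ± 0.86), Mepe (0.40 ± 0.84) and Capg (0.07 ± 0.24), all with overlap between the diets.

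**Figure D4:**
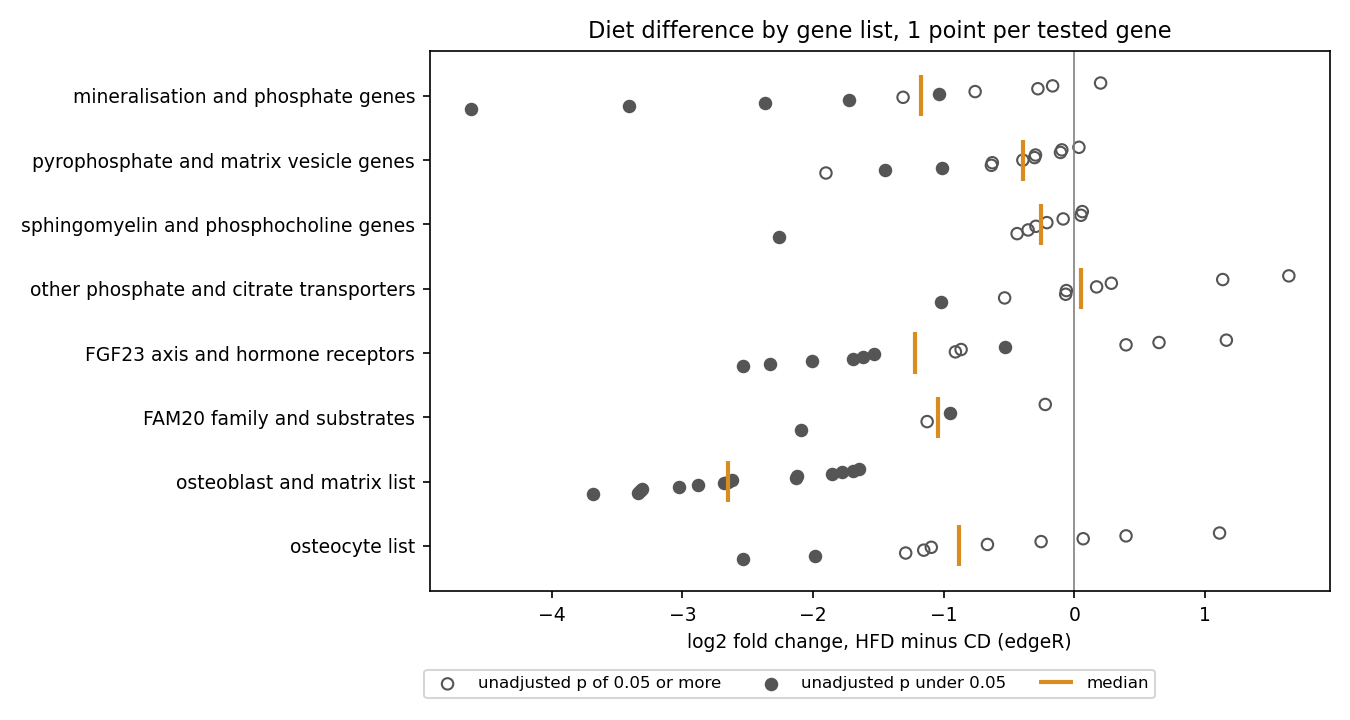
log2 fold change (HFD minus CD, edgeR) of each tested gene in 8 lists, with filled points at an unadjusted p under 0.05 and orange lines at the medians. The medians lie at -1.17 for the 10 mineralisation and phosphate genes, -1.22 for the FGF23 axis, -2.65 for the osteoblast list and 0.06 for other transporters. Some genes stand on 2 lists.

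The summed level of the 10 genes was 190, 172 and 298 CPM in HFD 2, HFD 3 and HFD 4, against 336, 460 and 887 CPM in CD 1, CD 2 and CD 4. As a share of all counts without scaling it was 0.0240%, 0.0219% and 0.0247% in HFD, against 0.0215%, 0.0569% and 0.0837% in CD. CD 1 stood above all HFD libraries on the first scale and below them on the second. It had the lowest TMM factor (0.640) and 37.9% of its counts on mitochondrial genes, and whether its place on either scale follows from that was not tested.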

How the data were processed

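Total RNA from tissue labelled cortical bone was selected for poly(A) and sequenced in pairs as 6 libraries, 3 HFD and 3 CD. The authors deposited 1 table of 32000 genes with a count and an FPKM value per library. Per the submitters' processing notes the tools were HISAT2 2.0.4, StringTie 1.3.4d, cutadapt 1.9, edgeR, DESeq2 and UMI-tools, with no role given. The methods of the paper name STAR and featureCounts on GRCm38 instead. The origin of the deposited counts and their strand setting are therefore not settled. If molecular identifiers were used, counts are of molecules. The deposited FPKM equalled a constant per gene and library times the count within 0.307% for 98% of values of 10853 well counted genes. Of the gene IDs 31900 are in GENCODE M21, and the span of Phex differs there.

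Counts were tested in edgeR 4.0.16 (R 4.3.3) with TMM, filterByExpr at a minimum count of 10, which left 19831 genes, the quasi-likelihood test and Benjamini-Hochberg adjustment at 0.05. The script was tested on simulated data. Depth was 54.5 to 61.6 M (mega-counts). Alternatives were no filter, RLE and upper quartile scaling, DESeq2 1.42.0, limma 3.58.1 on log2(FPKM + 1) or log2(FPKM + 0.1) with an FPKM of at least 0.5 in 3 libraries, each library left out, a replicate block, the osteoblast or intestinal list as covariate, and CD 4 alone against HFD. log2 CPM used a prior count of 1. No pair of libraries held identical values.

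The 10 genes and the lists were chosen with earlier results of these data known. Named in the text are these genes, those overlapping their spans, the nearest genes in pattern and some genes of the further lists. From the lists of related roles these are the genes with the highest mean FPKM and the smallest p. From the osteoblast list Col1a1 and Sp7 are examples, and from the osteocyte list Dmp1, Sost, Mepe and Capg are named. The remaining lists are summarised. Ank, Alpi, Slc17a1, Sost and Mepe were chosen after their values were seen. Of the listed genes 4 were not analysed here. Promoter windows are from RefSeq on GRCm38.p6.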

Additional observations from a re-analysis of the deposited data

How the results depend on the processing

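Each result was read in up to 16 alternatives. Of these values 197 were counted as kept, while 12 moved, 11 turned direction and 2 gained a call. For a single gene, kept means the same direction and side of the threshold. For a count it allows a modest change, such as 7 against 5. For the median of the 10 genes it allows a shift below 0.753, the pooled SD between libraries of their median log2 CPM. DESeq2 called 342 genes and 2 of the 10 (Alpl, -2.34, and Smpd3, -3.38), and limma called 10 genes with a pseudocount of 1 and 7 with 0.1. edgeR called 0 to 24 genes with each library left out in turn, the 24 being without CD 4. Of these 23 were higher in HFD and 1 lower, and 0 were among the 10 genes. In that fit the intestinal list had a median log2 fold change of 7.02. The number of the 10 genes lower at an unadjusted p under 0.05 (5) was a count added after seeing the data. It was 3 in both limma fits, 0 with the osteoblast covariate, and 2 (without CD 4) to 7 (without HFD 4) with a library left out, with 3 without HFD 2 and 3 without HFD 3. Over all genes, 464 and 424 of 14940 were lower at that p in the limma fits, and 213 of 19831 with the covariate. They were 473 of 20628 without CD 4, 1904 of 20793 without HFD 4, 581 of 20556 without HFD 2 and 745 of 20450 without HFD 3. The median of the 10 genes was -0.17 with the osteoblast covariate, and -0.68 (without CD 4) to -1.86 (without HFD 4) with a library left out. Some directions turned. Slc20a2 was at 0.03 in both limma fits (0.031 and 0.0333), 0.0479 with the osteoblast covariate and -0.57 (without CD 2) to 0.0355 (without CD 4) with a library left out. Slc20a1 was at -0.19 with that covariate and -0.0469 (without HFD 3) to 0.46 (without CD 2) with a library left out. Fgf23 was at -0.58 (without HFD 4) to 0.26 (without HFD 2), with 0.023 without CD 1, and Phex at 1.06 with that covariate. Slc13a5 gave no limma value, being under the FPKM minimum. Beyond what the covariate and the libraries left out show, the cause was not tested. The replicate numbers are shared for 2 and 4 only, and deviations of same-numbered libraries correlated at -0.14 and 0.16 across genes. Libraries of unlike number correlated at -0.33 to 0.417. These values show no pairing by number but, with so few libraries, cannot exclude it. In a fit with a replicate block, CD 1 and HFD 3 stand alone in their blocks, so the diet difference rests on numbers 2 and 4. Little is left there to estimate spread, so its calls say little. edgeR called 0 genes and 0 of the 10 in it, with Slc20a1 at -0.10 and Slc20a2 at 0.17. At an unadjusted p under 0.05, 6 of the 10 were lower, as were 1837 of all 19831 genes. Precision from depth is lowest for Fgf23, with 25 to 100 counts per library, and for Slc13a5 in HFD, with 15 to 114.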
